A study of Mus musculus with 12 samples.

Results

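Myot, Sln, Cox8b, Tnnc2, Myh3, Pln and Tecrl are genes of striated muscle that were lower in mouse embryos carrying the whirligig allele of Chd7. These 7 genes, of 19751 named on the array, were chosen from the differences between genotypes in these same arrays. Their levels are therefore a description of the choice, with no test. They were read by 8 probes, because Myh3 had a pair of them.

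The whirligig allele is a chemically induced nonsense mutation of Chd7, a chromatin remodeller whose human counterpart is mutated in CHARGE syndrome. Total RNA came from whole female embryos at embryonic day 9.5, from matings of heterozygous parents on a mixed C3HeB/FeJ background, and was measured on 1-colour arrays. The 4 homozygous samples (Chd7Whi/Whi) carried the allele on 2 copies, the 4 heterozygous samples (Chd7Whi/+) on 1 copy, and the 4 wild-type samples (Chd7+/+) on none. The study asked which genes depend on functional Chd7 when neural crest cells migrate. The allele was present in every cell of the embryo, and the labels do not say whether a sample was 1 embryo or several. Samples of a genotype are called biological replicates in the labels, so the spread given is that between these samples. Replicate numbers below only name arrays.

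In striated muscle, heart and skeletal, thick filaments of myosin pull on thin filaments of actin, which are anchored at the Z-disc. Calcium released from the sarcoplasmic reticulum binds troponin and allows contraction, and a calcium pump returns it to the store. At this stage the heart already beats, whereas skeletal muscle has only begun to differentiate in the myotomes of the somites, under the regulators Myf5, Myod1, Myog and Myf6. A whole embryo holds both tissues, and in such bulk RNA fewer muscle cells and less RNA per muscle cell cannot be told apart.

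The share of probes well above background lay between 69.1% and 75.7%. Arrays correlated with each other at 0.986 to 0.995 within a genotype and at 0.983 to 0.994 between genotypes, over the probes of the genes or identifiers tested. Xist was well above background on 12 of 12 arrays, and 4 Y-linked genes on none except Ddx3y, on 1. Chd7 itself was not analysed here, since no probe was assigned to it by accession. A further 13374 probes had no gene name, so whether the array holds a Chd7 probe is not known. Each of 3 slides held all 3 genotypes. Array position on the slide was less balanced: position 1 held wild-type samples only, position 3 alone held both homozygous and wild-type samples, and heterozygous and wild-type samples never shared a position. Levels are processed signals divided by the 75th percentile of their array and put on the log2 scale, written below as log2 signal, so a negative value is a signal below that percentile. Levels are compared between arrays for 1 probe and never between probes.

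One array stood apart. In heterozygous replicate 1 the heart markers Nkx2-5, Gata4, Tbx5, Nppa, Myl7 and Tnnt2 had log2 differences of -7.34 to -0.70 from the wild-type mean, with a median of -2.84. The medians of the same 6 markers were 0.22 to 0.83 on the homozygous arrays, -0.16 to 0.36 on the other heterozygous arrays and -0.29 to 0.26 on the wild-type arrays. The summed signal of 16 thick filament genes was 8.74 times the array's 75th percentile in heterozygous replicate 1, against 120 to 163 on the other heterozygous arrays and 112 to 164 on the wild-type arrays. Heterozygous results are therefore given with and without this array.

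Every one of the 7 genes was lower in homozygotes than in wild type. The log2 fold changes, homozygous minus wild type, ran from -3.36 to -1.80 with a median of -2.57. The arrays of homozygotes and wild type did not overlap for 7 of 7 genes, where 8.22% of the 22568 genes or identifiers tested showed such a gap downwards. Heterozygotes were also lower than wild type for 7 of 7, by a median log2 fold change of -1.83 (-2.50 to -1.14), without overlap for 7 of 7 against 2.18% of all tested. With limma at an adjusted p under 0.05, 6 of the 7 were called lower in homozygotes, all but Pln, where 0.864% of all tested were called lower, and 1, Myot, in heterozygotes, where 0.00886% were. These comparisons chose the genes and share the wild-type arrays, so nothing is read from the counts.

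**Figure D1:**
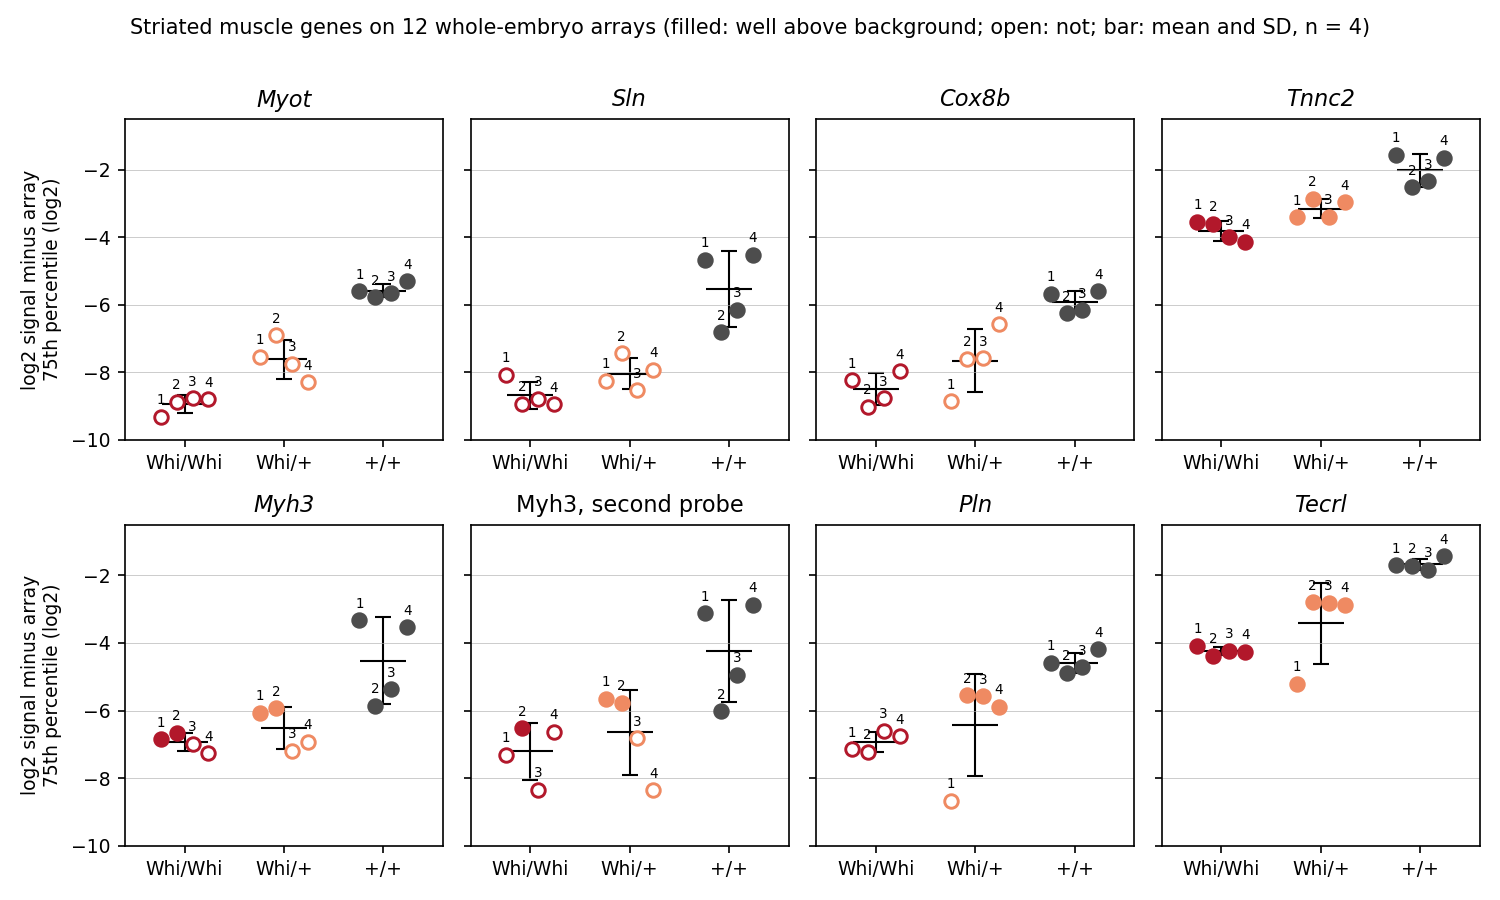
Scaled log2 signal of the 8 probes on each of 12 arrays, by genotype (homozygous, heterozygous, wild type from left to right). Filled points are arrays on which the probe was well above background, open points those on which it was not, numbers name replicates, and bars are mean and SD of 4 arrays. Homozygous arrays lie below all wild-type arrays in each panel, and heterozygous replicate 1 lies apart for Pln and Tecrl.

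Homozygotes and heterozygotes differed less. Myot, Sln and Cox8b were well above background on none of the arrays of either, so no difference or order between the mutant genotypes is given for these 3. Tnnc2 had a log2 fold change, homozygous minus heterozygous, of -0.66 ± 0.24, Tecrl of -0.82 ± 0.44 and Myh3, measured on part of the arrays, of -0.41 ± 0.52. Pln, well above background on no homozygous array, had -0.51 ± 0.56, and its heterozygous replicate 1 lay below every homozygous array. Of these 4 genes only Tnnc2 had no overlap between arrays of both mutant genotypes, where 1.65% of all genes tested had homozygotes wholly below heterozygotes. Without heterozygous replicate 1, Pln and Tecrl did not overlap either, while Myh3 still did. No share over all genes was taken without that array, so nothing is read from this.

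The genes of the contractile apparatus came in 3 parts of the sarcomere. Tnnc2, the calcium-binding troponin subunit of fast skeletal muscle, was well above background on 12 of 12 arrays. Its log2 signal was -3.54, -3.60, -3.99 and -4.14 in homozygotes, -3.41, -2.87, -3.39 and -2.96 in heterozygotes, and -1.56, -2.52, -2.35 and -1.64 in wild type. The 3 genotypes thus formed 3 ranges with no overlap, in the order of the number of mutant copies, although the highest homozygous and lowest heterozygous arrays lay close together. Tnnc2 was 3.49-fold lower in homozygotes than in wild type (log2 fold change -1.80 ± 0.24, SE) and 2.20-fold lower in heterozygotes than in wild type (-1.14 ± 0.24). The heterozygous mean lay 63.2% of the way from the wild-type to the homozygous mean, or 58.5% without heterozygous replicate 1.

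Myh3 encodes the embryonic myosin heavy chain, the motor of the thick filament in early skeletal muscle. The probe used in the fit, which had the higher mean log2 signal over the 12 arrays, had log2 signals of -6.85, -6.65, -6.98 and -7.27 in homozygotes, -6.07, -5.93, -7.18 and -6.93 in heterozygotes, and -3.33, -5.86, -5.38 and -3.53 in wild type. Wild-type replicates 1 and 4 were far above replicates 2 and 3, and the lowest wild-type array was just above the highest heterozygous one. The probe was well above background on 2 homozygous, 2 heterozygous and 4 wild-type arrays, and its log2 fold changes against wild type were -2.41 ± 0.52 in homozygotes and -2.005 ± 0.52 in heterozygotes. The second probe gave -2.97 and -2.41, and on it heterozygous values (-8.35 to -5.65) overlapped wild-type ones (-6.01 to -2.86).

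The promoters of Tnnc2 and Myh3 are shown because these genes still correlated over the arrays once genotype means were taken away, as described further on. Each runs from 250 bases before to 50 after the RefSeq start on build GRCm38.p6, in the sense of the gene, with E-boxes (CANNTG, the letters that bind myogenic and other helix-loop-helix factors) in capitals. Tnnc2 lies on the minus strand (chr2:164779685-164779984) and Myh3 on the plus strand (chr11:67078050-67078349).
Tnnc2: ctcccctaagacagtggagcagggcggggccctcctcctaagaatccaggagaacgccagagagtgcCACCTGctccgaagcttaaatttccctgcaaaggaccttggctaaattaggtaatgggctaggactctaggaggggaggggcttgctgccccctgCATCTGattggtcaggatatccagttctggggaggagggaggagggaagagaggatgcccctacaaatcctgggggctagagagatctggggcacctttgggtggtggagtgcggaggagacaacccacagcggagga
Myh3: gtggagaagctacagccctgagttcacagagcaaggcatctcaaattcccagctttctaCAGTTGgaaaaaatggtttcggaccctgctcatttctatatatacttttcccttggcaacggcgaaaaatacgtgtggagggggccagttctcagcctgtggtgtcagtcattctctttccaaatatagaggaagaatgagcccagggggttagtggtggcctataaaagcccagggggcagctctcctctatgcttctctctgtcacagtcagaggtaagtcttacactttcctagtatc
Tnnc2 had E-boxes at -183 and -88 from the start and Myh3 had 1 at -191. The search covered both strands, and 72.3% of the 32851 promoters of the table hold at least 1 such match, so it sets neither gene apart.

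Myot encodes myotilin, a Z-disc protein that binds actinin and filamin. Its log2 signal was -9.31, -8.88, -8.76 and -8.80 in homozygotes, -7.53, -6.90, -7.75 and -8.29 in heterozygotes, and -5.59, -5.77, -5.66 and -5.30 in wild type. Both mutant genotypes lay below every wild-type array, and the wild-type arrays lay within 1 narrow band. The probe was well above background on 4 of 4 wild-type arrays and on none of the 8 arrays with the allele, so levels in both mutant genotypes are only bounds. For such a bound each dim value was first raised to the lowest signal well above background on its array, where it lay under it, and the group means were then compared. That signal is the lowest over all probes of the array and is no detection limit of this probe. Folds given as at least are therefore approximate bounds. Myot was at least 2.42-fold lower in homozygotes and at least 2.03-fold lower in heterozygotes than in wild type. The measured log2 fold changes were -3.36 ± 0.24 and -2.04 ± 0.24. The deposited processed signal, a linear intensity, averaged 2.98 in homozygotes, 6.90 in heterozygotes and 31.1 in wild type. Since both mutant genotypes were below background, the gap between them is not given as a fold.

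A pair of small membrane proteins, sarcolipin (Sln) and phospholamban (Pln), inhibit the calcium pump of the sarcoplasmic reticulum. Sln, used in atria and skeletal muscle, had log2 signals of -8.08, -8.93, -8.78 and -8.94 in homozygotes, -8.24, -7.43, -8.53 and -7.93 in heterozygotes, and -4.66, -6.81, -6.15 and -4.51 in wild type. As for Myh3, wild-type replicates 1 and 4 were the high ones, and both mutant genotypes overlapped each other below every wild-type array. The probe was well above background on wild-type arrays only, all 4 of them. Sln was at least 2.50-fold lower in homozygotes and at least 2.10-fold lower in heterozygotes than in wild type, with measured log2 fold changes of -3.15 ± 0.47 and -2.50 ± 0.47.

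Pln, the form known from ventricles and slow muscle, had log2 signals of -7.15, -7.21, -6.60 and -6.76 in homozygotes, -8.67, -5.54, -5.58 and -5.88 in heterozygotes, and -4.59, -4.88, -4.72 and -4.19 in wild type. Heterozygous replicate 1 was the lowest array of all, and the other 3 heterozygous arrays lay between the homozygous and the wild-type ranges. The probe was well above background on 0 homozygous, 3 heterozygous and 4 wild-type arrays. With dim values raised as for Myot, Pln was 4.73-fold lower in homozygotes than in wild type (measured log2 fold change -2.34 ± 0.56). Homozygous replicates 1 and 4 lay above the level used and entered as measured, so this fold is no lower bound. Heterozygotes against wild type gave -1.83 ± 0.56 with all arrays and -1.07 without heterozygous replicate 1.

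Tecrl encodes an enoyl-CoA reductase-like protein of the endoplasmic reticulum, mutated in a human inherited arrhythmia. All 12 arrays measured it well above background, with log2 signals of -4.08, -4.38, -4.23 and -4.27 in homozygotes, -5.21, -2.79, -2.81 and -2.87 in heterozygotes, and -1.69, -1.71, -1.83 and -1.43 in wild type. Apart from heterozygous replicate 1, which fell below the homozygous arrays, the genotypes formed 3 tight and separate bands. Tecrl was 5.93-fold lower in homozygotes than in wild type (log2 fold change -2.57 ± 0.44) and 3.37-fold lower in heterozygotes (-1.75 ± 0.44, or -1.16 without heterozygous replicate 1). Its heterozygous mean lay 68.2% of the way from the wild-type to the homozygous mean with all arrays and 45.0% without that array.

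Cox8b encodes the muscle and heart form of subunit 8 of cytochrome c oxidase, the last enzyme of the respiratory chain. Its log2 signal was -8.23, -9.02, -8.76 and -7.97 in homozygotes, -8.85, -7.59, -7.59 and -6.58 in heterozygotes, and -5.67, -6.25, -6.16 and -5.60 in wild type. Heterozygous replicate 1 lay among the homozygous arrays and replicate 4 near the wild-type ones. The 4 wild-type arrays measured it well above background, and the other 8 arrays did not. Cox8b was at least 1.92-fold lower in homozygotes and at least 1.61-fold lower in heterozygotes than in wild type, with measured log2 fold changes of -2.58 ± 0.40 and -1.73 ± 0.40 (-1.33 without heterozygous replicate 1).

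The promoters of Pln, Tecrl and Cox8b, which were jointly low in heterozygous replicate 1 as well as in homozygotes, are on the same build and with the same window. Capitals mark E-boxes and, in Tecrl, the MEF2 site TTATATATAG. Pln lies on the plus strand (chr10:53337436-53337735), Tecrl on the minus strand (chr5:83355146-83355445) and Cox8b on the minus strand (chr7:140900397-140900696).
Pln: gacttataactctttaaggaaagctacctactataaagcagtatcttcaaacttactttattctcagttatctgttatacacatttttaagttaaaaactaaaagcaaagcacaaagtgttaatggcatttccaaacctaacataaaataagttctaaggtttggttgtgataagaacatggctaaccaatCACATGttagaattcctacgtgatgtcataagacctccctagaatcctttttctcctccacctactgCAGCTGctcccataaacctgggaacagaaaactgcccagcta
Tecrl: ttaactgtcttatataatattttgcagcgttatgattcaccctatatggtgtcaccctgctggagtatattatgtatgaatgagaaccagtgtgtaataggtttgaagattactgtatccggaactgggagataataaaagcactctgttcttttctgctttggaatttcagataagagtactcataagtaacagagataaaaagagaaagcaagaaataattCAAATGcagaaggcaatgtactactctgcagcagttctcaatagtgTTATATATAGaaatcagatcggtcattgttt
Cox8b: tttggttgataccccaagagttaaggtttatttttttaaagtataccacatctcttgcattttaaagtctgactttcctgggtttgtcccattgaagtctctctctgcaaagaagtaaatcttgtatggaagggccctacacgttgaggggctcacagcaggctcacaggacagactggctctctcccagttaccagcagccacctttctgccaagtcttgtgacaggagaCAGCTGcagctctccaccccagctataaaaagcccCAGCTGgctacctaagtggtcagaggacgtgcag
The E-box CAGCTG, which is also a CANNTG match, stood at -19 and 17 in Cox8b and at 9 in Pln, and 16.3% of all promoters hold it. Pln had another E-box at -59 and Tecrl 1 at -27. The MEF2 site of Tecrl stood at 20, and 3.19% of all promoters hold a MEF2 site. No CArG box (1.63% of all promoters) and no CATTCC core (14.7%) was found in these 5 windows. A match is a run of letters and shows no binding.

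After the genotype means were taken away, some of the 7 genes still moved together from array to array. Pearson correlations over the 12 arrays on these residuals were 0.97 for Pln and Tecrl, 0.76 for Cox8b and Tecrl and 0.72 for Cox8b and Pln. Without heterozygous replicate 1, over 11 arrays, they were 0.53, 0.36 and 0.13 for the same pairs, so the likeness of these 3 genes rested mainly on that array. They were 0.90 for Sln and Tnnc2, 0.88 for Sln and Myh3 and 0.80 for Tnnc2 and Myh3, and 0.91, 0.93 and 0.91 without that array. Those 3 genes were together high in wild-type replicates 1 and 4, on slides 1 and 3, while replicates 2 and 3 shared slide 2. Among the wild-type arrays this split cannot be told apart from slide. Each of these 3 genes had its largest SD in wild type (0.49 for Tnnc2, 1.13 for Sln and 1.28 for Myh3). The wild-type arrays therefore weigh most in their correlations. Correlations of Myot with the other 6 genes ran from -0.33 to 0.47 over 12 arrays and from -0.39 to 0.62 without that array, the highest then being that with Pln. For Myot, Sln and Cox8b the residuals of 8 arrays are those of values below background. Myh3 was well above background on only 2 homozygous and 2 heterozygous arrays. All these values are descriptions over arrays that share 1 scaling.

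Residual correlations with the 6 heart markers ran from 0.55 to 0.97 for Pln, 0.64 to 0.98 for Tecrl and 0.35 to 0.73 for Cox8b over 12 arrays. Without heterozygous replicate 1 they ran from -0.62 to 0.47, -0.09 to 0.18 and -0.32 to 0.09 for the same genes. The ranges over 12 arrays were -0.55 to -0.07 for Myot, -0.10 to 0.08 for Sln, -0.01 to 0.21 for Tnnc2 and -0.47 to -0.26 for Myh3. Without that array they were -0.77 to 0.14, -0.41 to -0.19, -0.66 to -0.05 and -0.64 to -0.35 in the same order.

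With Myod1, Myog and Myf6, the skeletal regulators bright enough to be tested, the residual correlations over 12 arrays ran from 0.30 to 0.86 for Myot, 0.16 to 0.75 for Myh3, 0.08 to 0.74 for Tnnc2 and 0.05 to 0.59 for Sln. They ran from -0.24 to 0.34 for Pln, -0.36 to 0.29 for Tecrl and -0.38 to 0.02 for Cox8b. Without heterozygous replicate 1 the ranges were 0.34 to 0.91 for Myot, 0.23 to 0.77 for Myh3, 0.10 to 0.76 for Tnnc2, 0.02 to 0.59 for Sln, 0.04 to 0.58 for Pln, 0.10 to 0.27 for Tecrl and -0.27 to -0.13 for Cox8b. For Pln and Tecrl the ranges with heart markers lay above those with the regulators over 12 arrays, and overlapped them over 11. In wild-type replicates 1 and 4, where Sln, Myh3 and Tnnc2 were highest, the summed signal of 8 yolk sac endoderm markers was 7.002 and 6.31 times the 75th percentile, against 33.7 and 17.7 in replicates 2 and 3. That of 6 primitive erythroid markers was 318 and 335 in replicates 1 and 4, against 189 and 110 in replicates 2 and 3. The part of these markers in the spread of the 3 genes was not tested.

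**Figure D2:**
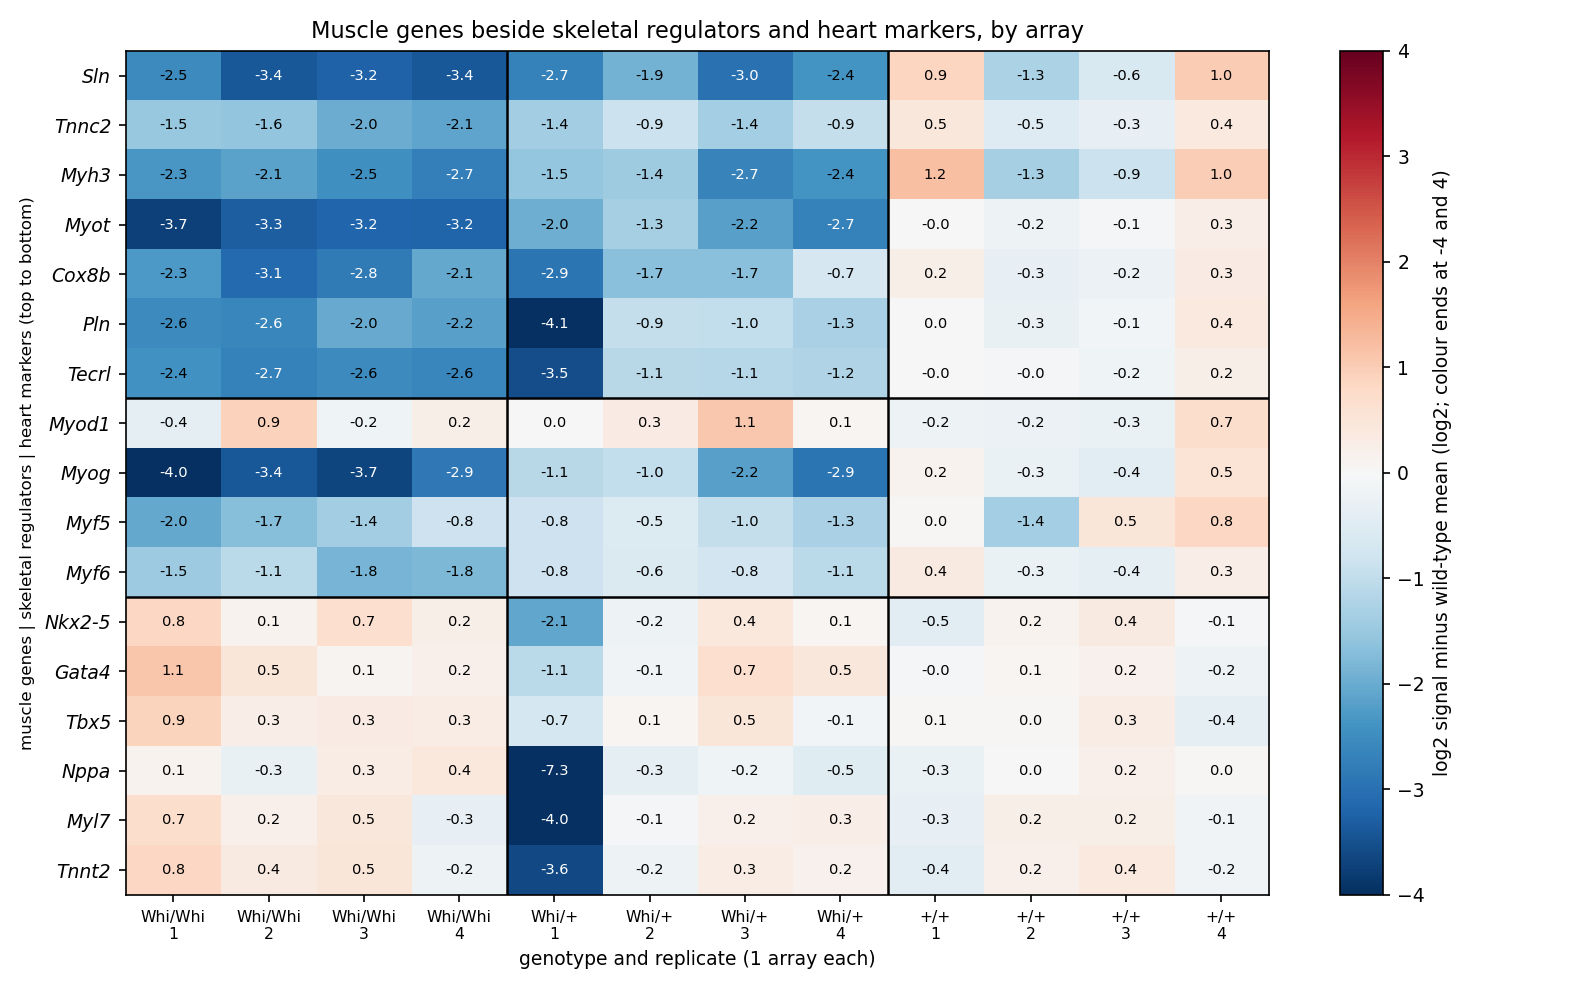
Log2 signal minus the wild-type mean for the 7 genes (top), 4 skeletal muscle regulators (middle) and 6 heart markers (bottom) on each of 12 arrays, homozygous to the left and wild type to the right. Pln and Tecrl are low on the 4 homozygous arrays, where the heart markers have medians of 0.22 to 0.83, and are lowest in heterozygous replicate 1, where the heart markers have a median of -2.84.

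Beside the low Pln, Tecrl and Cox8b of the homozygous arrays, the heart markers stood at or above their wild-type means on average. All 6 had positive log2 fold changes, homozygous minus wild type, from 0.14 (Nppa, adjusted p = 0.968) to 0.48 (Nkx2-5, adjusted p = 0.602), and none was called. The skeletal regulators did not move as 1 group. Myog, which drives differentiation of myoblasts, fell by 3.48 ± 0.41 on the log2 scale (adjusted p = 0.00167), with -7.38, -6.76, -7.05 and -6.23 in homozygotes and -3.22, -3.64, -3.80 and -2.82 in wild type. Myf6, another of these regulators, fell by 1.54 ± 0.21 (adjusted p = 0.00407). Myog and Myf6 were each well above background on 4 of 4 wild-type arrays but only 2 of 4 homozygous arrays. Their folds therefore rest partly on dim values. For Myod1, which specifies muscle cells, the log2 fold change was 0.15 ± 0.33 (adjusted p = 0.854). Myf5 was well above background on none of the homozygous or heterozygous arrays and on 2 of 4 wild-type arrays, so it was not tested and no fold is given. The log2 fold changes in heterozygotes were -1.80 ± 0.41 for Myog (adjusted p = 0.237) and -0.81 ± 0.21 for Myf6 (adjusted p = 0.237).

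Markers of somite and presomitic mesoderm, the tissue from which the myotome forms, had a lower summed signal on the homozygous arrays, with 5 of 6 lower and 1 higher in value than in wild type. The summed signal of 6 such markers was 7.17 to 8.98 times the 75th percentile in homozygotes, 7.61 to 14.0 in heterozygotes and 9.63 to 11.4 in wild type. The homozygous and wild-type arrays did not overlap, and the heterozygous arrays spanned both. Meox2, a homeobox factor of somites, fell by 1.51 ± 0.22 on the log2 scale in homozygotes (adjusted p = 0.00738), and Pax1, a factor of the sclerotome, had -1.29 ± 0.39 (adjusted p = 0.144). The part of these markers in the lower values of the 7 genes was not tested.

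The other genes of the muscle programme had a median change near that of all genes. Of 149 listed genes of striated muscle other than these, 145 were on the array and 123 were tested. In homozygotes 4 fell and 1 rose at an adjusted p under 0.05, where 1.35% of all genes tested were called in either direction. Heterozygous replicate 1 also enters the spread used for this comparison. With that array left out, 6 listed genes fell and 1 rose. The median log2 fold change of the 123 was 0.08, with 48 lower and 75 higher in value, against 0.02 for all genes tested. That of the 7 was -2.57. They were chosen for being low and left out of the lists, so nothing is read from this gap. Beside Myog and Myf6, Mybph, a myosin-binding protein, fell by 0.80 ± 0.13 (adjusted p = 0.0113). Klhl41, which keeps myofibrils in order, fell by 1.15 ± 0.24 (adjusted p = 0.0424), and this call was lost under 16 of 23 other settings. Klhl41 was well above background on 4 of 4 wild-type arrays but only 1 of 4 homozygous arrays. Casq2, the calcium-storing protein of the cardiac sarcoplasmic reticulum, rose by 1.04 ± 0.13 (adjusted p = 0.00245). Its log2 signal was -5.30 to -4.97 in homozygotes and -6.34 to -5.88 in wild type, and its call depended on the background correction. Normexp gave Casq2 a value of -0.0728 (adjusted p = 0.925), or 0.28 (adjusted p = 0.219) once 4 spots far below their local background were left out of the normexp fit. Of these 5 genes Myog alone was called with either form of normexp, with adjusted p of 0.00503 and 0.000697.

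**Figure D3:**
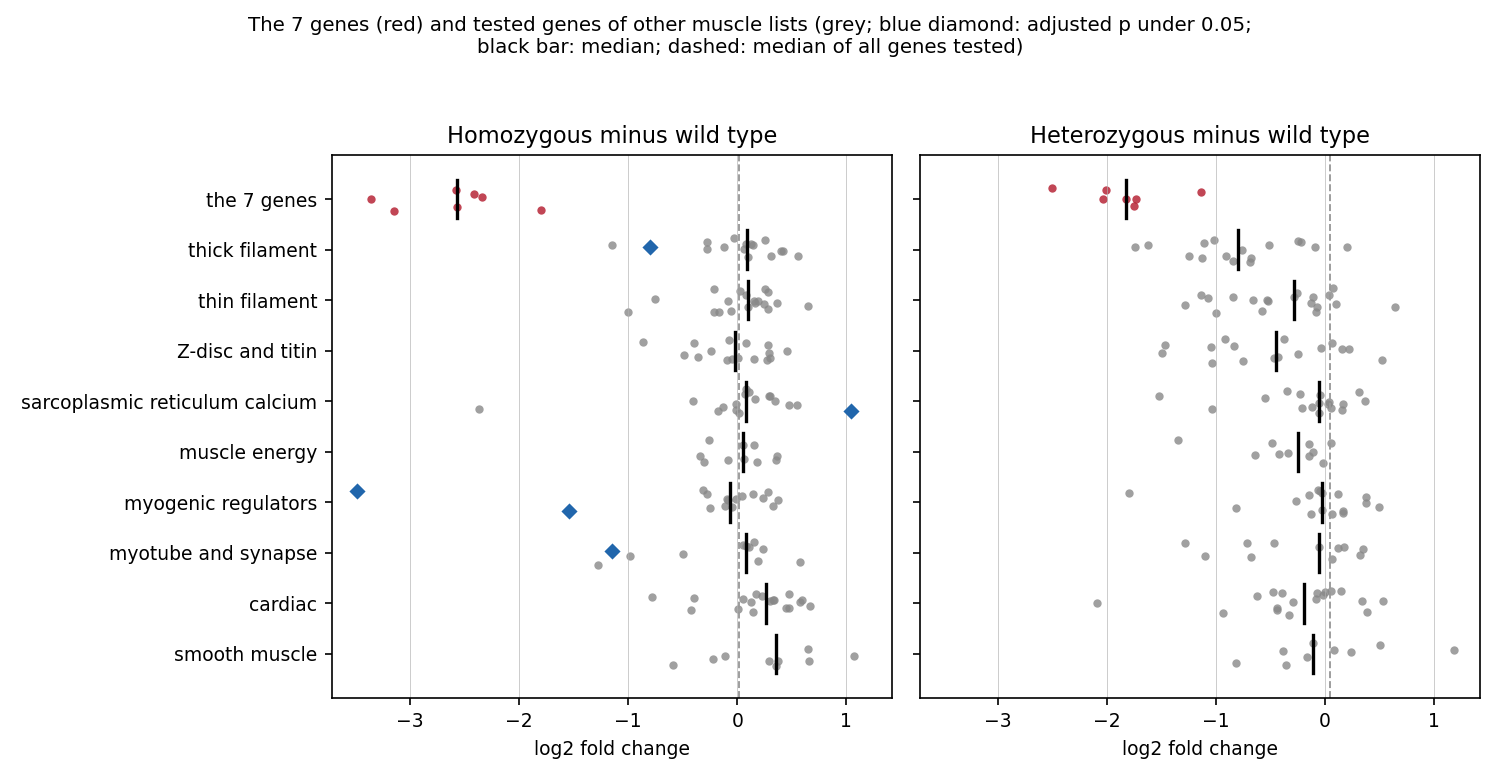
Log2 fold changes of the 7 genes (red) and of tested genes in 9 other muscle lists (grey), homozygous minus wild type (left panel) and heterozygous minus wild type (right panel). Blue diamonds passed an adjusted p of 0.05, black bars are list medians and the dashed line is the median of all genes tested. In homozygotes the list medians lie between -0.07 and 0.35. The median of the 7 genes, which were chosen for being low and left out of the lists, is -2.57.

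The thick filament list, the partners of Myh3, had 1 of 16 tested genes called, Mybph, and a median log2 fold change of 0.09 in homozygotes. In value, 6 were lower and 10 higher. Myl1 of this list had -1.14 ± 0.70 (adjusted p = 0.425), and -0.64 on its other probe. Its log2 signal was -0.48 to 0.03 in homozygotes and 0.80 to 1.09 in wild type. The thin filament list, the partners of Tnnc2, had 0 of 19 called, with 2 genes at p under 0.05 and a median of 0.10. The smallest p there belonged to Tpm3, a tropomyosin, with -0.21 ± 0.09 (adjusted p = 0.266), and to Lmod2, an actin nucleator, with -1.01 ± 0.44 (adjusted p = 0.278). Among 16 Z-disc genes, the neighbours of Myot, 0 were called and 0 had p under 0.05, the nearest being Actn3 (0.29 ± 0.14, adjusted p = 0.332) and Flnc (0.28 ± 0.17, adjusted p = 0.426). Of 17 genes of sarcoplasmic reticulum calcium, the list of Sln and Pln, 1 rose (Casq2), 3 had p under 0.05 and the median was 0.08. In that list Trdn, triadin of the calcium release complex, was at -2.37 ± 0.67 (adjusted p = 0.12), and at 0.03 on a dimmer probe. With normexp fitted without those 4 spots it was called (-0.96, adjusted p = 0.0084). Like Pln and Tecrl it was lowest in heterozygous replicate 1 (-8.27), below its homozygous values of -6.74 to -6.00 and its wild-type values of -4.26 to -3.81. Of 10 muscle energy genes, the list of Cox8b, 0 were called, 1 had p under 0.05 and the median was 0.05. Slc25a4, the adenine nucleotide carrier, had -0.25 ± 0.09 (adjusted p = 0.22), and Mb, myoglobin, had -0.34 ± 0.20 (adjusted p = 0.407).

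Among 18 cardiac genes 0 were called in homozygotes, 4 had p under 0.05, 15 were higher in value and the median was 0.26. The smallest p belonged to Hand2 (-0.78 ± 0.21, adjusted p = 0.109) and Tbx2 (-0.42 ± 0.14, adjusted p = 0.182), transcription factors of heart and other mesoderm. Of 11 myotube and synapse genes 1 fell, Klhl41, 4 had p under 0.05 and the list median was 0.08, with 4 lower and 7 higher in value. Beside Klhl41, those with p under 0.05 were Musk (-0.98 ± 0.22, adjusted p = 0.0509), Cdh15 (-0.50 ± 0.11, adjusted p = 0.0605) and Vgll2 (-1.27 ± 0.36, adjusted p = 0.116). Of 16 myogenic regulators 2 fell, 5 had p under 0.05 and the median was -0.07, with 10 lower and 6 higher in value.

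In heterozygotes 0 of the 123 listed genes were called with limma, 19 had p under 0.05, and 89 were lower and 34 higher in value, with a median log2 fold change of -0.23. Without heterozygous replicate 1, 57 were lower and 66 higher in value and the median was 0.03, against 0.05 for all genes. In the thick filament list the median was -0.80 with all arrays and -0.00229 without that array. For the 7 genes the heterozygous log2 fold changes without that array were -2.06 for Myot, -2.43 for Sln, -1.33 for Cox8b, -1.05 for Tnnc2, -2.16 for Myh3, -1.07 for Pln and -1.16 for Tecrl. The remaining arrays did not overlap wild type, but the share of all genes with such a gap was not taken, so nothing is read from it.

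Genes whose log2 signal was most like that of the 7 over the 12 arrays were named by Pearson correlation. Against the mean of the 7, each scaled to unit spread, the closest were Bdnf (0.95), Ahr, Crybg3, Ap1s2, Abca9 and Dnajc1 (0.93). Myot was closest to Slc9b2 (0.98) and Myog (0.97). Pln and Tecrl were both closest to Trdn (0.95 and 0.96) and Txlnb (0.95 each). Cox8b was closest to Bdnf and Fabp4, Tnnc2 to Zfp711 and Fgf10, Sln to Zcchc12 and Ormdl1, and Myh3 to Thsd7a and Rbm26. With genotype means taken away, the closest to the mean of the 7 were Ormdl1 (0.91), Usp45, Trpc4, Fzd1, Ap1s2 and Tex30 (0.84). These are descriptions over 12 arrays in which the genotypes themselves differ.

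The differences were seen within each slide. Homozygous minus wild type was negative on slides 1, 2 and 3 for 7 of 7 genes, from -3.72 (Myot, slide 1) and -4.35 (Sln, slide 3) to -1.03 (Myh3, slide 2). Slide 2 held wild-type replicates 2 and 3, and there Sln (-2.45), Tnnc2 (-1.17) and Myh3 (-1.03) had their smallest differences. On position 3, with 2 homozygous samples and 1 wild-type sample, the difference was -3.38 for Myot, -2.28 for Sln, -2.34 for Cox8b, -1.42 for Tnnc2, -1.54 for Myh3, -2.16 for Pln and -2.32 for Tecrl. On the same position Myog had -3.41, Myf6 -1.29, Mybph -0.80, Klhl41 -1.04 and Casq2 1.01. With position as a block, 0 listed muscle genes were called (Myog adjusted p = 0.284).

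Background correction changed the size of these differences. Normexp, which adds 50 units to each signal, treated 1 wild-type array unlike the rest. In replicate 2 its fit placed the mean background at -201 units, against -23.7 to -4.25 on the other 11 arrays, and at -7.47 once 2 control spots with local background up to 2998 units were left out of the fit. With such spots left out on all arrays, the homozygous log2 fold changes were -0.52 for Myot, -0.61 for Sln, -0.39 for Cox8b, -1.36 for Tnnc2, -0.95 for Myh3, -0.55 for Pln and -1.85 for Tecrl. With them kept, the values were -0.84, -0.96, -0.72, -1.47, -1.27, -0.84 and -1.90 in the same order. All 7 stayed below 0 in either form.

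**Figure D4:**
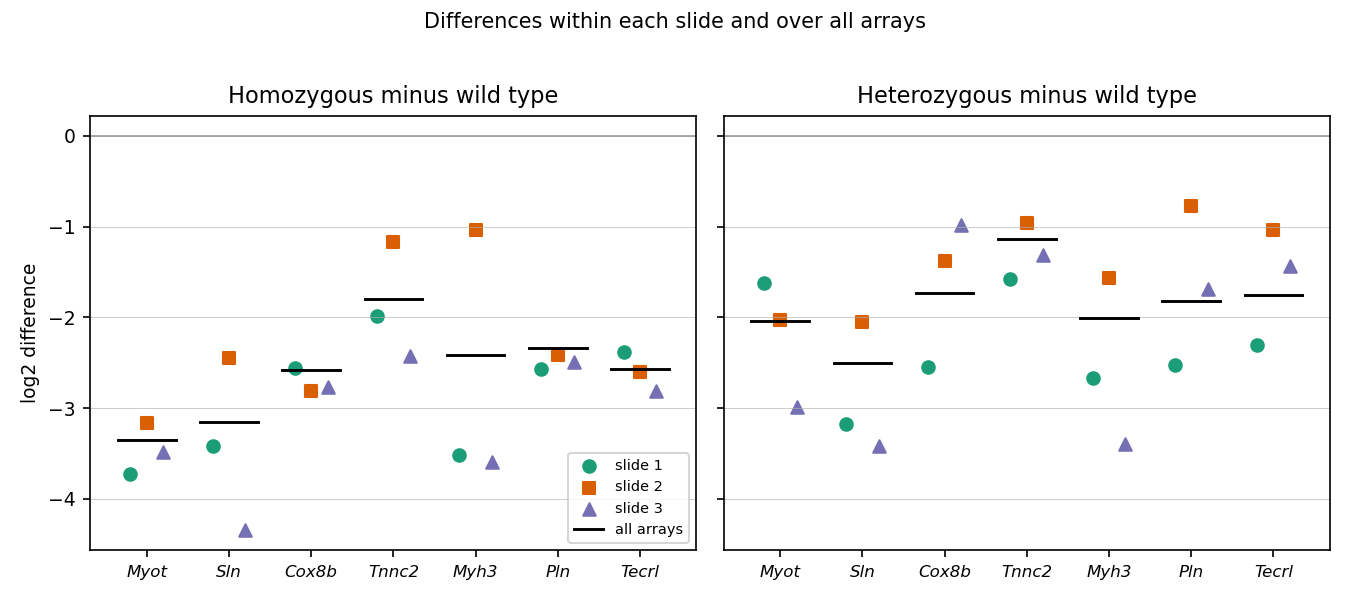
Log2 differences of the 7 genes within each of 3 slides (symbols) and over all arrays (black bars), homozygous minus wild type (left panel) and heterozygous minus wild type (right panel). All symbols lie below 0, and Sln, Tnnc2 and Myh3 spread more between slides in homozygotes than Cox8b, Pln and Tecrl do.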

How the data were processed

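The authors scanned each array in 1 colour (Cy3) and read spots with Agilent Feature Extraction 10.7.3.1, per the file headers. The submitters' processing notes name limma too. The deposited values are linear intensity per spot, corrected for background within the array and not scaled between arrays, per the file headers. From these, log2 of the ratio to the array's 75th percentile (1095 to 1721) was computed here, without 1377 control spots and 171 to 386 outlying spots per array. Spots of a probe were averaged. Of 39429 probes, 26055 were named by accession in a RefSeq table (GRCm38.p6), and the probe of a gene with the highest mean log2 signal was used. A gene was tested when well above background on all arrays of 1 genotype.

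One limma 3.58.1 model (R 4.3.3) was fitted to 12 arrays and Benjamini-Hochberg adjusted over 22568 genes or identifiers, with a threshold of 0.05. Its spread is estimated over all 12 arrays. Genes far off in heterozygous replicate 1 therefore also have a wider SE for homozygous minus wild type. It was tested on simulated data. Errors are SD over 4 arrays or SE of the fit, and the number of arrays limits precision. The members, gene lists and motifs were chosen with earlier results of these data known. From each list the called genes with the smallest p are named, at most 4, or else the 2 with the smallest p. Trdn was named among the genes most like Pln and Tecrl. Myl1, Musk, Cdh15 and Vgll2 are given as further values, outside the naming rule of the lists. Alternatives were normexp background correction (run on median signals), quantile normalization, other filters, blocks, variance models, array weights and leaving out each array. A block for array position and 2 further forms of normexp were chosen once the data had been seen. The deposited value table was not used here.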

Additional observations from a re-analysis of the deposited data

Results flagged for a closer look

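In groups of 4 arrays, 3 of 39 groups tested held 1 array far from the others, and chance flags about 1 in 20. Pln in heterozygous replicate 1 had a log2 signal of -8.67, where the other heterozygous arrays had -5.88 to -5.54. Tecrl in the same array had -5.21, against -2.87 to -2.79 on the other heterozygous arrays. The heart markers of that array are given with the results. Mybph in heterozygous replicate 4 had -4.76, where the other heterozygous arrays had -5.32 to -5.23.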

How the results depend on the processing

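Log2 fold changes of the 7 genes against wild type were recomputed 370 times, of which 102 repeat the reported value by construction. Of the other 268, 209 stayed within 1 SD of it, 59 moved further and 0 changed sign, on genes chosen for being low. Normexp values of the 7 genes are given with the results. Those of wild-type replicate 2 were set by 2 control spots, and 2 further forms, chosen after seeing the data, left out either spots far below background or that array. Without that array Cox8b was at -0.33, Myot at -0.46 and Pln at -0.52 in homozygotes. Casq2 was at -0.0728 (adjusted p = 0.925) with all spots, 0.28 without those spots and 0.34 without that array, and was not called in any of the 3. Genes called in homozygotes, 305 in all (110 higher, 195 lower), became 91 (9 higher, 82 lower) with normexp, 245 (83 higher, 162 lower) with normexp fitted without those spots, 179 (56 higher, 123 lower) with normexp without that array, 188 with no filter, 532 with array weights (221 higher, 311 lower), 20 with position as a block (3 higher, 17 lower) and 112 to 447 with 1 array left out. The listed muscle genes called there, 5, became 1 with normexp, 3 (Myog, Trdn and Hand2) without those spots, 2 without that array, 2 with probes well above background on all arrays, 0 with position as a block and 4 to 7 with 1 array left out. Genes called in heterozygotes, 2, became 5 with no filter or slide as a block, 1 with each form of normexp, only the 2 genotypes compared, another variance model or probes well above background on all arrays, and 0 to 3 with 1 array left out. Listed muscle genes called in heterozygotes stayed at 0 under each setting run. Of the 7 genes, 4 to 6 were called in homozygotes with 1 array left out, 3 with normexp (4 without those spots) and 1 with position as a block. Among settings that left out 1 array, counts in homozygotes were lowest without wild-type replicate 1 (112) or 4 (114), and were 149, 136 and 139 without homozygous replicates 1, 2 and 3; for heterozygotes 0 were called without heterozygous replicate 3 or wild-type replicates 2, 3 or 4. The cause was not tested.

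Title numbers are shared between genotypes, but the labels do not say what they mark, and deviations of same-numbered arrays correlated between -0.32 and 0.29, so they were not taken as pairing. With title number as a replicate block, 19 genes were called in homozygotes (4 higher, 15 lower) and 0 in heterozygotes, 0 listed muscle genes in either, and 1 of the 7 genes in homozygotes. With that block Myog had an adjusted p of 0.0801. Dim signals limit Myot, Sln and Cox8b in both mutant genotypes and Pln in homozygotes, where levels are approximate, and Myh3, well above background on 2 of 4 arrays of each mutant genotype. They also limit Myog, Myf6 and Klhl41, well above background on 2, 2 and 1 of 4 homozygous arrays.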

Other observations

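Beyond striated muscle, the smooth muscle list had 0 of 9 genes called in homozygotes with limma, 4 with p under 0.05 and a median log2 fold change of 0.35. Actg2, an actin of visceral smooth muscle, had 1.07 ± 0.36 (adjusted p = 0.186), and Mylk, myosin light chain kinase, had 0.65 ± 0.17 (adjusted p = 0.1). In the somite and presomitic mesoderm list, whose summed signals are given with the results, 1 of 6 genes fell, Meox2, and the list median was -0.28. Of 8 yolk sac endoderm markers 8 were higher in value in homozygotes and 8 in heterozygotes than in wild type, with medians of 0.59 and 1.03, and none was called. Their summed signal was 4.52 to 79.1 times the 75th percentile in homozygotes, 14.2 to 32.5 in heterozygotes and 6.31 to 33.7 in wild type, although the embryos had been dissected from their yolk sacs, per the labels. The smallest p of this list belonged to Ttr, a carrier of thyroid hormone, at 1.11 ± 0.92 in homozygotes (adjusted p = 0.564), and to Amn, at 0.82 ± 1.01 (adjusted p = 0.708). Of 6 primitive erythroid markers 6 were lower in value in homozygotes and 6 higher in heterozygotes than in wild type, with medians of -0.33 and 0.28, and none was called, with the haemoglobin genes Hba-a1 at -0.49 ± 0.52 (adjusted p = 0.662) and Hbb-bh1 at -0.31 ± 0.38 (adjusted p = 0.703) in homozygotes. Of 5 neural tube markers 0 were called and 0 had p under 0.05 in homozygotes, with Sox3 at -0.34 ± 0.16 (adjusted p = 0.312) and Sox2 at -0.28 ± 0.15 (adjusted p = 0.359).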
